A study of Mus musculus with 31 samples.

Results

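Gluconeogenesis, the synthesis of glucose from lactate, glycerol and amino acids, was followed here through 10 genes in livers and muscles of mice that lack or carry altered forms of the nuclear receptor ERRα. The genes were taken from a list drawn up by name, matched to the gene rows of both count tables through GENCODE vM21 symbols. All 10 of 10 were found in each table, among 35275 rows in the table of the insulin experiment and 54532 rows in that of the ERRα3SA experiment.

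The liver makes glucose during a fast and releases it for the brain and red blood cells. The pathway runs glycolysis backwards and bypasses its irreversible steps with enzymes of its own. Glucagon, through cAMP, and glucocorticoids raise transcription of Pck1, G6pc and Tat in hepatocytes, and insulin lowers that of Pck1 and G6pc through phosphorylation of FoxO factors.

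By role, the first step belongs to Pcx (ENSMUSG00000024892, chr19:4510472-4621752), the mitochondrial pyruvate carboxylase that makes oxaloacetate. Oxaloacetate is turned into phosphoenolpyruvate by Pck1 (ENSMUSG00000027513, chr2:173153048-173159273), the cytosolic phosphoenolpyruvate carboxykinase, or by Pck2 (ENSMUSG00000040618, chr14:55540266-55551242), its mitochondrial form. Fructose-1,6-bisphosphate is dephosphorylated by Fbp1 (ENSMUSG00000069805, chr13:62864753-62888282), the liver and kidney enzyme, or by Fbp2 (ENSMUSG00000021456, chr13:62836877-62858422), the muscle enzyme. These neighbouring genes lie on the same strand. The last step, release of glucose from glucose 6-phosphate in the endoplasmic reticulum, is carried out by G6pc (ENSMUSG00000078650, chr11:101367561-101377903), the catalytic subunit of liver and kidney. G6pc3 (ENSMUSG00000034793, chr11:102189620-102194081) is the catalytic subunit found in most tissues, and Slc37a4 (ENSMUSG00000032114, chr9:44396852-44402968) carries glucose 6-phosphate into that compartment. Gpt2 (ENSMUSG00000031700, chr8:85492576-85527560), the mitochondrial alanine aminotransferase, and Tat (ENSMUSG00000001670, chr8:109990437-109999803), which starts tyrosine breakdown, feed amino acid carbon into the route. Positions are of GRCm38. No member shared more than 0.679% of its exon bases with another annotated gene.

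RNA was sequenced from livers of C57BL/6N mice in the insulin experiment: 4 WT given saline, 4 WT given insulin, 4 ERRα-/- given saline and 3 ERRα-/- given insulin. ERRα-/- mice lacked the receptor in the whole body. Mice fasted for 12 h received saline or 1 unit of insulin per kg into the peritoneum, and the organ was taken 4 h afterwards, at ZT6. The ERRα3SA experiment held 4 livers and 4 muscles (gastrocnemius and soleus) of ERRα3SA mice, which carry a CRISPR knock-in with serines of ERRα changed to alanine, and as many from WT littermates. The ERRα3SA muscles are titled SM_3A and their count columns SM_SA, and the 2 were matched by number. These mice were on a standard diet. By default the study's mice had free access to it, and no fast was described for these samples. By the study's default, animals were males 2 to 3 months old, and groups were matched for age and drawn from the same litters.

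Total counts per library lay between 37508292 and 41740965 in WT livers with saline, 35871419 and 40590962 in WT livers with insulin, 39250853 and 48317108 in ERRα-/- livers with saline, and 38156804 and 40067603 in ERRα-/- livers with insulin. The ERRα3SA experiment was shallower, with 23426588 to 33412022 in WT livers, 20481405 to 22836176 in ERRα3SA livers, 23561675 to 25831378 in WT muscles and 22241960 to 28835765 in ERRα3SA muscles. Levels are given as CPM, counts scaled to library sizes corrected by TMM. The 2 tables were normalized separately, so no test was run between them.

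The labels were checked first on Esrra, the gene of ERRα. Its level was 32.3, 51.3, 42.7 and 40.5 CPM in the WT livers with saline and 53.7, 96.4, 56.1 and 59.0 CPM in those with insulin, against 1.63, 0.703, 1.15 and 1.04 CPM and 0.833, 0.576 and 0.298 CPM in the ERRα-/- livers with saline and insulin. Every knockout library lay far under every WT library. Esrra was present in all ERRα3SA samples, at 29.4, 25.4, 21.1 and 19.2 CPM in liver and 24.3, 133, 127 and 94.5 CPM in muscle. The WT littermates had 27.7, 27.1, 28.2 and 29.4 CPM in liver and 90.2, 82.6, 66.9 and 78.0 CPM in muscle. The tissue labels fitted the markers: the 7 hepatocyte markers, led by Alb, summed to at least 65382 CPM in each liver and to at most 1.76 CPM in any muscle, and the 7 muscle fibre markers, led by Myh4 in each muscle, summed to at least 85682 CPM there.

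Several libraries stood apart. Of 5 markers of exocrine pancreas, an organ next to the liver, the sum was 693, 37.8, 4.04 and 984 CPM in WT livers with saline, 12.2, 69.8, 6.76 and 117 CPM in WT livers with insulin, 169, 22.1, 4.13 and 82.6 CPM in ERRα-/- livers with saline, and 8.09, 5.68 and 6.19 CPM in ERRα-/- livers with insulin. WT saline livers 1 and 4 therefore held the most, with Pnlip, pancreatic lipase, as the most abundant marker there, Cela1 in most other livers, and Amy2a5 at 0 in all 15. Prss2, Cpa1 and Pnlip were at 0 as well in WT insulin liver 3, ERRα-/- saline liver 3 and ERRα-/- insulin liver 2, and Cpa1 and Pnlip in WT saline liver 3. In the ERRα3SA experiment the sum was 124, 39.1, 57.4 and 49.1 CPM in WT livers and 440, 35.4, 24.8 and 43.1 CPM in ERRα3SA livers, highest in liver 1 of either genotype, with Cela1 leading in each liver and all 5 markers detected only in ERRα3SA liver 1. Leaving out the 6 livers above 100 CPM was an alternative chosen after the data were seen, and its values for the members stand beside the insulin and genotype results. The lists and the comparison of liver with muscle were not run this way. WT insulin liver 3 held 112 CPM of the 7 muscle fibre markers, led by Myh1 and with none at 0, against 0.348 to 10.2 CPM in the other livers of that experiment. WT insulin liver 2 had 1.88% of its counts on the mitochondrial genome, against 3.14 to 4.82% in the other 14 livers.

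Another set of libraries stood apart within a tissue. ERRα-/- saline liver 3 had the lowest sum of pericentral hepatocyte markers of the insulin experiment, 7638 CPM against 9159 to 13828 CPM in the other livers, with 0 of 7 markers at 0 and Cyp2e1 highest. ERRα3SA liver 4 had a sum of hepatocyte markers of 65382 CPM, against 94153 to 110285 CPM in the other 7 livers, and Alb took 4.04% of its counts. ERRα3SA muscle 1 had 19.3% of its counts on the mitochondrial genome, against 9.15 to 10.8% in the other 7 muscles, and 191343 CPM of muscle fibre markers against 85682 to 124751 CPM. ERRα3SA muscle 4 held 299 CPM of the 7 macrophage markers, led by Lyz2 and with 1 marker at 0, against 65.0 to 92.5 CPM in the other muscles. The part of these differences in the results was not tested beyond leaving out the libraries. In bulk samples such as these, fewer cells of a type and less RNA per cell cannot be told apart.

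Promoters are shown for 5 members on which the results turn, in lower case with motif matches in capitals. RefSeq promoters of GRCm38.p6, from 250 bases before to 50 after a start, matched all 10 members with 13 starts, and the printed stretches end before the GENCODE gene start. Both strands were searched for TNAAGGTCA (ERR), TGTTTAC and TGTTTTG (FoxO), TGACGTCA and TGACGCAA (cAMP) and AGAACA (part of a glucocorticoid receptor site), and for TTACGTCA, added after the Pck1 promoter had been read. These stood in 1.28%, 3.65%, 6.28%, 1.79%, 0.490%, 19.0% and 0.499% of 32851 promoters. The stretches are chr2:173152823-173153047 for Pck1, chr11:101367466-101367560 for G6pc, chr11:102189449-102189619 for G6pc3, chr8:85492326-85492575 for Gpt2 and chr8:109990186-109990435 for Tat, all on the + strand.
Pck1: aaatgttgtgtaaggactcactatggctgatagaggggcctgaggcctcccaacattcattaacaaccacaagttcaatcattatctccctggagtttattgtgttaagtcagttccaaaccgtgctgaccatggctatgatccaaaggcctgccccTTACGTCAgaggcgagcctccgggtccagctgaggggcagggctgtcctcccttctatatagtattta
G6pc: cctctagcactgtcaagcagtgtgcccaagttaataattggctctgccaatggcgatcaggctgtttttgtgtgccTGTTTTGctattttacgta
G6pc3: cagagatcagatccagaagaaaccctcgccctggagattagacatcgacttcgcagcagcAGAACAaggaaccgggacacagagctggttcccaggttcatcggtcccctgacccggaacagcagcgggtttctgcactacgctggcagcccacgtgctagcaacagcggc
Gpt2: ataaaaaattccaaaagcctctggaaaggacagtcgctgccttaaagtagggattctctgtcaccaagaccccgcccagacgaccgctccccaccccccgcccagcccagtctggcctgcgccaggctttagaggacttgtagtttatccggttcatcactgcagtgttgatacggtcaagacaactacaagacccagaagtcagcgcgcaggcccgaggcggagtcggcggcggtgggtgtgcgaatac
Tat: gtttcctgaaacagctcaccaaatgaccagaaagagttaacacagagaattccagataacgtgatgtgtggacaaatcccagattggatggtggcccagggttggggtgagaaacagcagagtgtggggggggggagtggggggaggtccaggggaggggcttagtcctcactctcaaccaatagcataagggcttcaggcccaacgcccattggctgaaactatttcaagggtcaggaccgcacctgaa
Capitals mark TTACGTCA in Pck1, 93 to 86 bases before the RefSeq start, TGTTTTG in G6pc, 174 to 168 bases before it, and AGAACA in G6pc3, 190 to 185 bases before it. Gpt2 and Tat held none of these letters. Of members not printed, Pck2 held TGTTTTG on the + strand and Fbp2 on the - strand, and TNAAGGTCA was in no member. A match is a description of letters in this window.

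The first comparison asked what insulin did to the pathway in WT liver after 4 h. The members did not move as a block: Pck1 was lower after insulin, while Tat, G6pc and Gpt2 were higher, and the other 6 did not pass the test. Pck1 stood at 4618, 3727, 4289 and 4512 CPM with saline and at 2605, 3922, 3061 and 2973 CPM with insulin. Of the insulin-treated livers, 3 lay under all saline livers and liver 2 lay within their range. Pck1 fell by 26.7% (log2 fold change -0.45 ± 0.16, SE, adjusted p = 0.165). G6pc, the glucose-releasing enzyme, stood at 250, 228, 293 and 255 CPM with saline and at 437, 596, 269 and 306 CPM with insulin. Livers 1 and 2 with insulin were well above all saline livers, and liver 3 lay among them. G6pc rose by 56.7% (log2 fold change 0.65 ± 0.23, SE, adjusted p = 0.165).

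Both transaminases were higher with insulin in WT liver. Tat stood at 1922, 2753, 1885 and 1394 CPM with saline and at 3562, 5292, 2237 and 3231 CPM with insulin, with liver 3 of the insulin group inside the saline range. Gpt2 stood at 868, 1161, 764 and 764 CPM with saline and at 1317, 1261, 1460 and 1541 CPM with insulin. For Gpt2 the groups did not overlap. The log2 fold change was 0.85 ± 0.27 (SE) for Tat and 0.65 ± 0.16 for Gpt2, with adjusted p of 0.127 and 0.0528. The sum of 7 adipocyte markers, led by Cidec, also differed without overlap, at 16.2 to 53.2 CPM with saline and 63.0 to 114 CPM with insulin. In each of these livers 1 to 3 of the 7 markers had no counts. In ERRα-/- livers with insulin Cidec alone had 52.6 to 73.2 CPM of sums of 66.4 to 79.7 CPM. The sum is thus mainly 1 gene there, and the cells behind it were not tested.

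Set against all genes, 3 of 10 members tested were higher and 1 was lower by the rule the study used, which limits the unadjusted p (0.05) and the size of the change (1.2 times), where 8.34% of all genes were higher and 8.91% lower. With adjusted p-values no member passed, against 3.16% of all genes. With DESeq2 in place of edgeR Tat and Gpt2 did, against 6.95%, and Gpt2 also did without the filter on low counts, with all groups in the fit and without saline liver 2, as did Pck1 without insulin liver 2. The median log2 fold change was 0.17 over the members and 0.00 over all genes tested. These p-values set the difference between groups against the spread between livers. Of the uncalled members, Pcx (800 to 1202 CPM over both groups), Fbp1 (569 to 767 CPM), Slc37a4 (168 to 365 CPM) and G6pc3 (1.67 to 4.25 CPM) had log2 fold changes between -0.10 and 0.01. Pck2, at 57 to 142 counts per library, and Fbp2, at 6 to 28, had 0.33 ± 0.34 and 0.50 ± 0.67 (SE). Each of the 4 calls was kept with any single library left out. Without the 3 livers with the most pancreas markers, which leaves 2 saline and 3 insulin livers, 0 of the 10 passed, and the log2 fold changes were -0.33 for Pck1, 0.74 for G6pc, 0.67 for Tat and 0.48 for Gpt2.

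**Figure D1:**
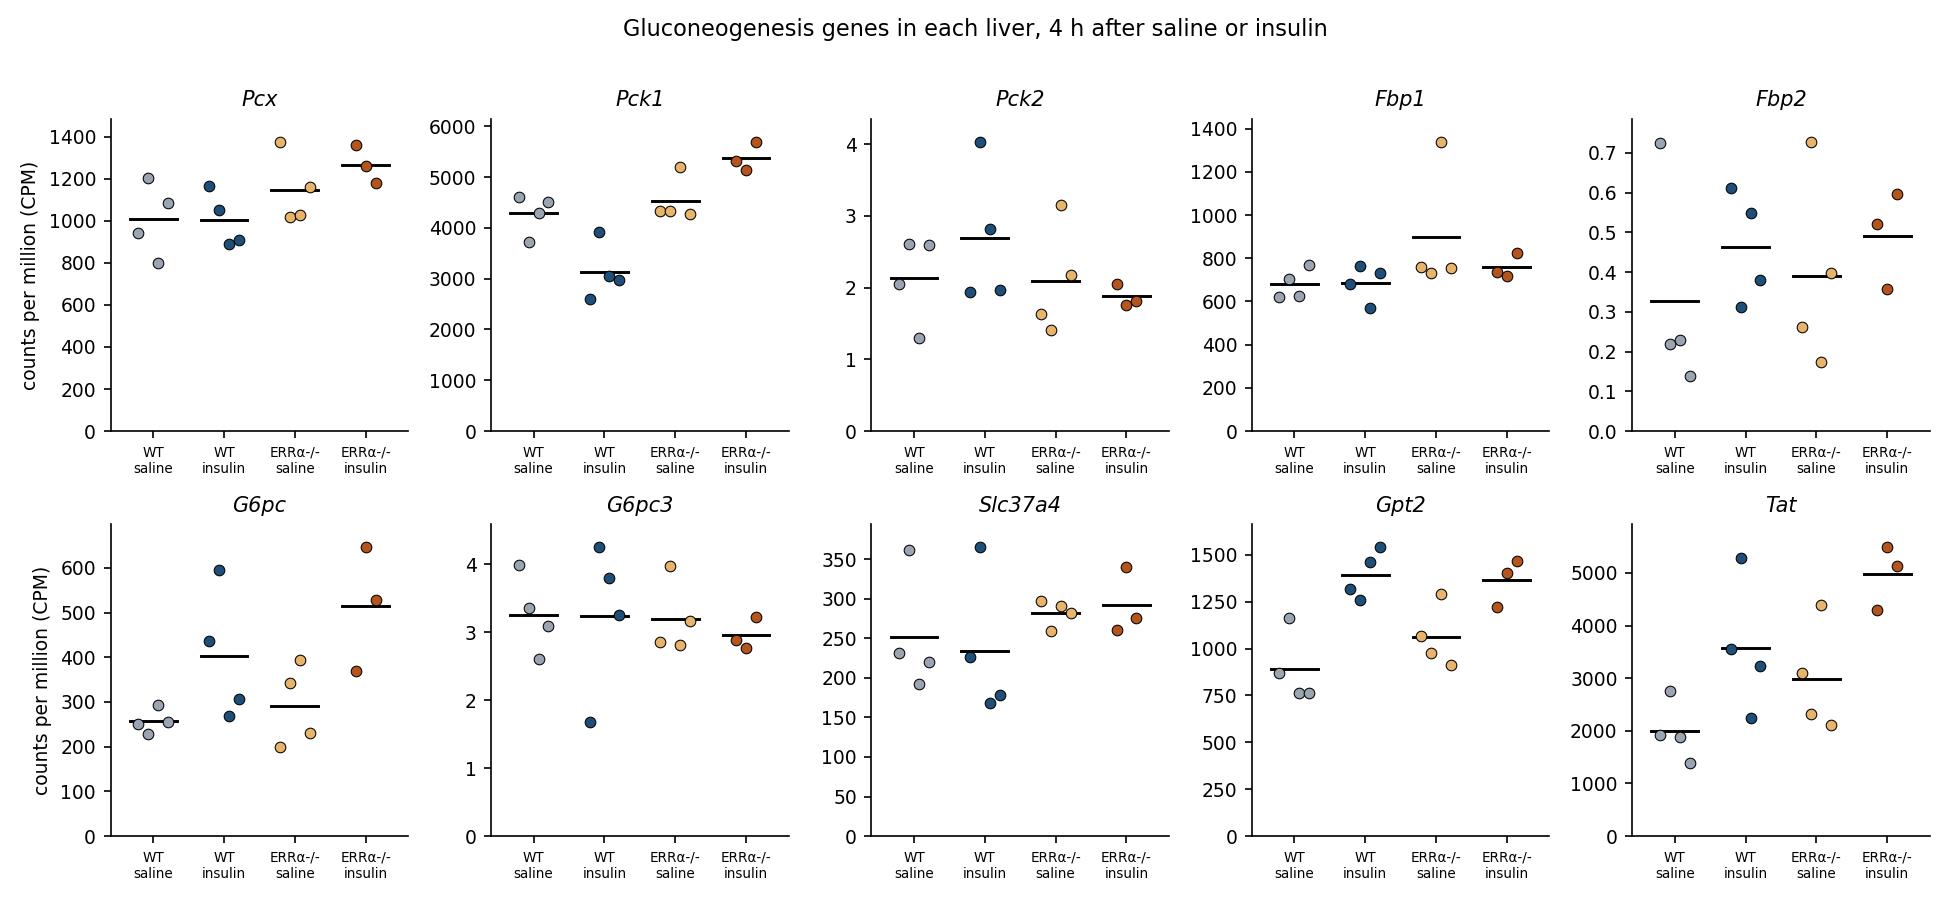
Level of each gluconeogenesis gene (CPM, vertical axis, from 0) in each liver of the insulin experiment, by group (horizontal axis), with 1 point per liver and a line at the group mean. Pck1 is lowest in WT livers with insulin and highest in ERRα-/- livers with insulin, where the lowest of 3 livers has 5139 CPM, and Tat and Gpt2 have higher means with insulin in either genotype.

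In ERRα-/- liver the same injection left no lowering of Pck1. Its level was 4340, 4330, 5204 and 4265 CPM with saline and 5307, 5139 and 5689 CPM with insulin. All 3 insulin livers lay above 3 of the saline livers, and saline liver 3, the library with few pericentral markers, lay among them. The log2 fold change was 0.24 ± 0.13 (SE, adjusted p = 0.364), and did not pass. Without saline liver 3 it was 0.32 and passed.

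Higher levels of G6pc, Tat and Gpt2 after insulin were seen in ERRα-/- liver as well. G6pc stood at 199, 343, 393 and 230 CPM with saline and at 370, 646 and 527 CPM with insulin, where liver 1 of the insulin group lay under saline liver 3. Tat stood at 3104, 2319, 4397 and 2111 CPM with saline and at 4287, 5490 and 5134 CPM with insulin, again with overlap only through saline liver 3. Gpt2 stood at 1068, 976, 1290 and 910 CPM with saline and at 1222, 1404 and 1469 CPM with insulin. As for Tat, only saline liver 3 reached into the insulin range. Log2 fold changes were 0.82 ± 0.25 (SE) for G6pc, 0.73 ± 0.23 for Tat and 0.36 ± 0.15 for Gpt2, with adjusted p of 0.114, 0.126 and 0.232.

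Here 3 of 10 members tested were higher and none lower, against 8.05% of all genes higher and 9.14% lower. None had an adjusted p under the threshold, against 2.91% of all genes. With DESeq2 Tat and G6pc had, against 7.22%, as they had without saline liver 3, and G6pc without the filter. The median log2 fold change was 0.19 over the members and -0.02 over all genes. Log2 fold changes of the uncalled members ran from -0.24 for Fbp1 to 0.33 for Fbp2. The Gpt2 call rested on single libraries, since it was lost without saline liver 1, 2 or 4 or insulin liver 2 or 4, where its log2 fold change ranged from 0.29 to 0.36. Without saline liver 1, the only one of these with over 100 CPM of pancreas markers, G6pc (0.67) and Tat still passed.

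Whether insulin acted differently in the genotypes was tested as an interaction, the effect in WT liver minus that in ERRα-/- liver. Pck1 was the only member to pass: its log2 effect was lower in WT liver by 0.69 (log2 difference -0.69 ± 0.20, SE, unadjusted p = 0.00265, adjusted p = 0.422). Of 10 members tested, 0 had a higher and 1 a lower effect in WT liver, where 4.75% of all genes were higher and 4.04% lower, and with adjusted p-values no gene passed (0%). The median difference was 0.11 over the members and 0.02 over all genes. G6pc, Tat and Gpt2 had differences of -0.17 ± 0.37, 0.11 ± 0.39 and 0.29 ± 0.22 (SE), and Pck2, with 0.49 ± 0.48, the largest of the uncalled. Without WT saline liver 2, Gpt2 passed too, with 0.44. When the 4 livers with the most pancreas markers were left out the Pck1 difference was -0.55, and no member passed.

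**Figure D2:**
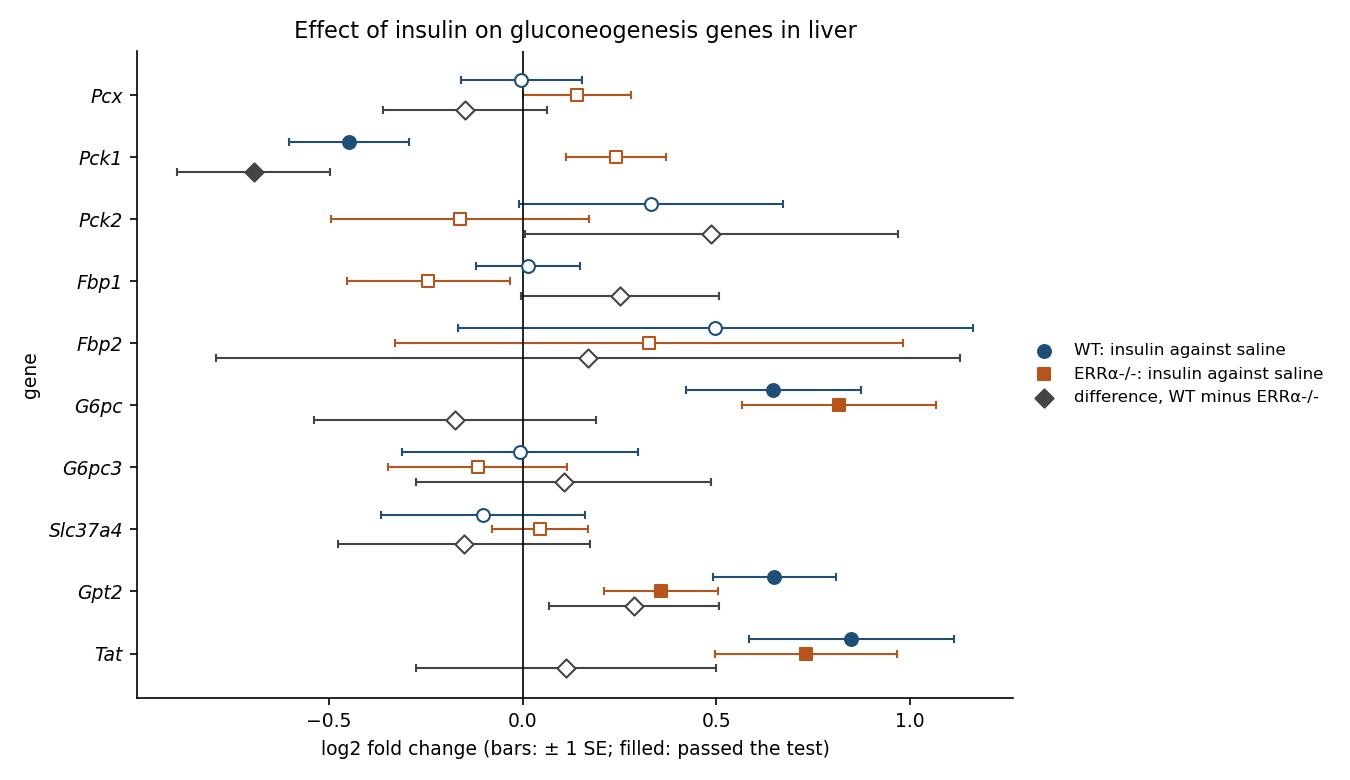
Log2 fold change of insulin against saline (horizontal axis) for each gluconeogenesis gene (vertical axis) in WT and ERRα-/- liver and their difference, with bars of 1 SE either side and filled symbols where the test was passed. Pck1 has -0.45 in WT and 0.24 in ERRα-/- liver, while G6pc, Gpt2 and Tat have filled symbols to the right of 0 in both genotypes.

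The next comparison set the genotypes side by side after saline, in the fasted state. Of the members only Tat was higher in ERRα-/- liver, with a log2 fold change of 0.59 ± 0.25 (SE, adjusted p = 0.385), and its groups overlapped. That is 1 of 10 members higher and 0 lower, against 5.98% and 5.30% of all genes, and none with adjusted p-values, against 0.0816%. The median log2 fold change was 0.18 over the members and 0.00 over all genes. Pck1, at 3727 to 4618 CPM in WT and 4265 to 5204 CPM in ERRα-/- liver, had 0.08 ± 0.13 (SE), and G6pc had 0.18 ± 0.20. Fbp1 had 0.40 ± 0.19: it stood at 622, 705, 624 and 767 CPM in WT and at 759, 731, 1338 and 757 CPM in ERRα-/- liver. A single library, ERRα-/- liver 3, lay far above the rest. Fbp1 passed with DESeq2 in place of edgeR, without the filter on low counts, with all groups in the fit, and without ERRα-/- saline liver 1, 2 or 4, and its log2 fold change was 0.14 without liver 3. The Tat call was lost without WT saline liver 1, 3 or 4 or ERRα-/- saline liver 1 or 3, with 0.34 without the last. Without the 3 livers with the most pancreas markers Tat had 0.34 and no member passed. Without WT saline liver 2, Gpt2 (0.41) and Slc37a4 (0.40) passed as well.

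After insulin, Pck1 was clearly apart between the genotypes. Its 3 ERRα-/- livers, at 5307, 5139 and 5689 CPM, lay above all 4 WT livers, the highest of which had 3922 CPM. Pck1 was 1.70 times as high in ERRα-/- liver (log2 fold change 0.77 ± 0.15, SE, unadjusted p = 0.000467, adjusted p = 0.163). Pcx, which makes the substrate of Pck1, was higher too. It stood at 1165, 1053, 890 and 909 CPM in WT and at 1362, 1260 and 1179 CPM in ERRα-/- liver, with no overlap, and its log2 fold change was 0.32 ± 0.14 (SE, adjusted p = 0.469). The sum of hepatocyte markers was higher in these ERRα-/- livers as well, at 102588 to 109520 CPM against 81836 to 92110 CPM. So were those of pericentral markers (11682 to 12866 against 9159 to 11245 CPM) and of periportal markers, led by Alb (73898 to 79289 against 63192 to 69657 CPM). Alb belongs to both the hepatocyte and the periportal list and had 72126 to 77462 CPM in these ERRα-/- livers. The periportal sum is therefore mostly Alb again and says little about periportal cells. The part of these markers in the differences was not tested.

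This made 2 of 10 members higher and none lower after insulin, where 4.57% of all genes were higher and 5.42% lower, and none with adjusted p-values, against 0.0585%. Pck1 passed these with DESeq2, against 1.76%, with all groups in the fit, and without WT insulin liver 2. The median log2 fold change was 0.22 over the members and -0.02 over all genes. The uncalled members ran from -0.53 ± 0.34 (SE) for Pck2 to 0.46 ± 0.25 for Tat. Pck1 kept its call with any single library left out, and had 0.74 without WT insulin liver 4, the 1 liver of this comparison above 100 CPM of pancreas markers. Pcx lost its call without WT insulin liver 3 or 4 or ERRα-/- insulin liver 1 or 2, where its log2 fold change was 0.27 to 0.33. Without WT insulin liver 2, the library with few mitochondrial counts, 5 members were higher: Tat had 0.72, Slc37a4 0.61 and G6pc 0.60 beside Pck1 and Pcx. Calls over all genes in that fit are not given here, so this count is not a result about the members alone. The interaction and the comparisons between genotypes share these livers, so they are not separate evidence.

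Around the 10 genes, lists of the wider pathway were described in the same way. Of 10 targets of FoxO outside gluconeogenesis, 5 were higher and 1 lower after insulin in WT liver, against 8.34% and 8.91% of all genes. In ERRα-/- liver 6 were higher and 1 lower, against 8.05% and 9.14%. The medians were 0.42 and 0.42, beside 0.00 and -0.02 over all genes. Igfbp1, an insulin-suppressed binding protein of insulin-like growth factors, stood at 167, 200, 154 and 77.6 CPM with saline and at 773, 1539, 301 and 442 CPM with insulin in WT liver. All 4 insulin livers lay above the saline livers, by the least in liver 3. Its log2 fold change was 2.35 ± 0.47 in WT liver and 1.29 ± 0.53 (SE) in ERRα-/- liver, where 1 saline liver reached 1161 CPM. Pdk4, a kinase that shuts off pyruvate oxidation, had 2.54 and 1.42, and Txnip 0.97 and 1.75. In WT liver Pdk4 stood at 4.25, 4.04, 7.49 and 5.62 CPM with saline. With insulin it stood at 26.5, 10.3, 63.0 and 24.4 CPM, highest in liver 3, the library with muscle fibre markers. Those markers summed to 112 CPM in that liver and to at least 110570 CPM in WT muscles, where Pdk4 had 231 to 647 CPM. The part of muscle RNA in the Pdk4 value was not tested.

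Of 11 glucocorticoid response genes, 5 were higher with insulin in WT liver and 4 in ERRα-/- liver, against 8.34% and 8.05% of all genes, and none was lower. The medians were 0.54 and 0.24, beside 0.00 and -0.02 over all genes, and without ERRα-/- saline liver 2 the second was -0.11, with 3 higher and 2 lower. Fkbp5, a chaperone gene induced by the glucocorticoid receptor, stood at 184, 282, 146 and 140 CPM with saline and 278, 364, 379 and 381 CPM with insulin in WT liver, and at 244, 164, 180 and 145 CPM and 384, 534 and 485 CPM in ERRα-/- liver. The groups overlapped slightly in WT and not in ERRα-/- liver. Its log2 fold changes were 0.90 and 1.35, and those of Cdkn1a, a cell cycle inhibitor, 3.41 and 1.15. The interaction was positive for Cdkn1a (2.26). With saline Cdkn1a stood at 6.77 to 27.5 CPM in WT and at 24.1 to 91.1 CPM in ERRα-/- livers. With insulin it stood at 117 to 268 CPM and at 94.2 to 145 CPM, so the saline levels differed between the genotypes as well.

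Enzymes that feed or share the route gave mixed counts, to be read against 8.34% of all genes higher and 8.91% lower with insulin in WT liver and 8.05% and 9.14% in ERRα-/- liver. Among 25 genes of substrate supply tested, 4 were higher and 3 lower with insulin in WT liver and 1 higher and 4 lower in ERRα-/- liver, with medians of 0.22 and -0.06 beside 0.00 and -0.02 over all genes. Agxt, an alanine-using aminotransferase, had log2 fold changes of 1.70 ± 0.19 and 1.02 ± 0.29 (SE), Sds, serine dehydratase, had 1.13 in WT liver, and Slc38a3, a glutamine transporter, had -0.62 and -0.48. Among the 14 genes of reversible steps, 3 and 2 were higher and none lower, with Got1, the cytosolic aspartate aminotransferase, at 1.59 ± 0.26 and 1.67 ± 0.36. Of the glycolytic genes that oppose the pathway, 1 of 13 was higher and 4 lower in WT liver and 2 of 12 higher and 3 lower in ERRα-/- liver. Slc2a2, the glucose transporter of hepatocytes, had -0.78 and -0.75, and Pklr, the liver pyruvate kinase, had -0.34 in WT liver. Its call in ERRα-/- liver came with a single saline liver at 166 CPM, where the other 3 had 39.2 to 60.9 CPM.

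Regulators of the pathway and targets of amino acid starvation had calls in both directions, several of them at or under the shares of all genes. Of 32 transcriptional regulators 7 were higher and 2 lower with insulin in WT liver, and 7 and 1 in ERRα-/- liver, against the shares of all genes given above (8.34% and 8.91%, 8.05% and 9.14%). The medians were 0.02 and 0.13, beside 0.00 and -0.02 over all genes. Ppargc1a, the coactivator of ERRα that drives gluconeogenic genes, stood at 17.9, 27.1, 11.4 and 14.8 CPM with saline and 73.6, 24.1, 31.5 and 37.2 CPM with insulin in WT liver, overlapping through liver 2 of each group (log2 fold change 1.22 ± 0.34, SE). Cited2 had 1.05 and 0.98 in the 2 genotypes and Cry1, a clock repressor, 0.86 and 0.76. For Foxo3 the interaction was -0.98 ± 0.28. Of 13 genes of glucagon and cAMP input, 2 were higher and 1 lower in WT and 2 higher and 0 lower in ERRα-/- liver, with Crem, a cAMP-induced factor, at 0.97 and 0.37. Among targets of ATF4, 3 of 14 were higher and 1 lower in WT and 1 of 13 higher and 2 lower in ERRα-/- liver, with Sesn2 at 0.58 and 1.33.

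Between ERRα-/- and WT liver, calls in the list of reversible steps were mostly of lower levels. In ERRα-/- against WT liver, 7 of its 14 genes were lower and 1 higher after saline, and 9 lower and 1 higher after insulin, with medians of -0.31 and -0.47. Of all genes 5.30% were lower and 5.98% higher after saline, and 5.42% and 4.57% after insulin, with medians of 0.00 and -0.02. Eno1, enolase, stood at 348, 440, 369 and 415 CPM in WT and 291, 263, 247 and 293 CPM in ERRα-/- liver after saline, and at 397, 426, 335 and 404 CPM and 226, 257 and 242 CPM after insulin. No ERRα-/- liver reached the range of the WT livers. The log2 fold changes were -0.52 ± 0.11 and -0.70 ± 0.13 (SE) for Eno1 and -0.47 ± 0.10 and -0.68 ± 0.15 for Mdh1, the cytosolic malate dehydrogenase. Igfbp1 was higher in ERRα-/- liver after saline, by 2.10 ± 0.51. Its ERRα-/- saline livers stood at 883, 166, 1161 and 358 CPM, with liver 2 inside the WT range (77.6 to 200 CPM) and liver 3 highest.

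**Figure D3:**
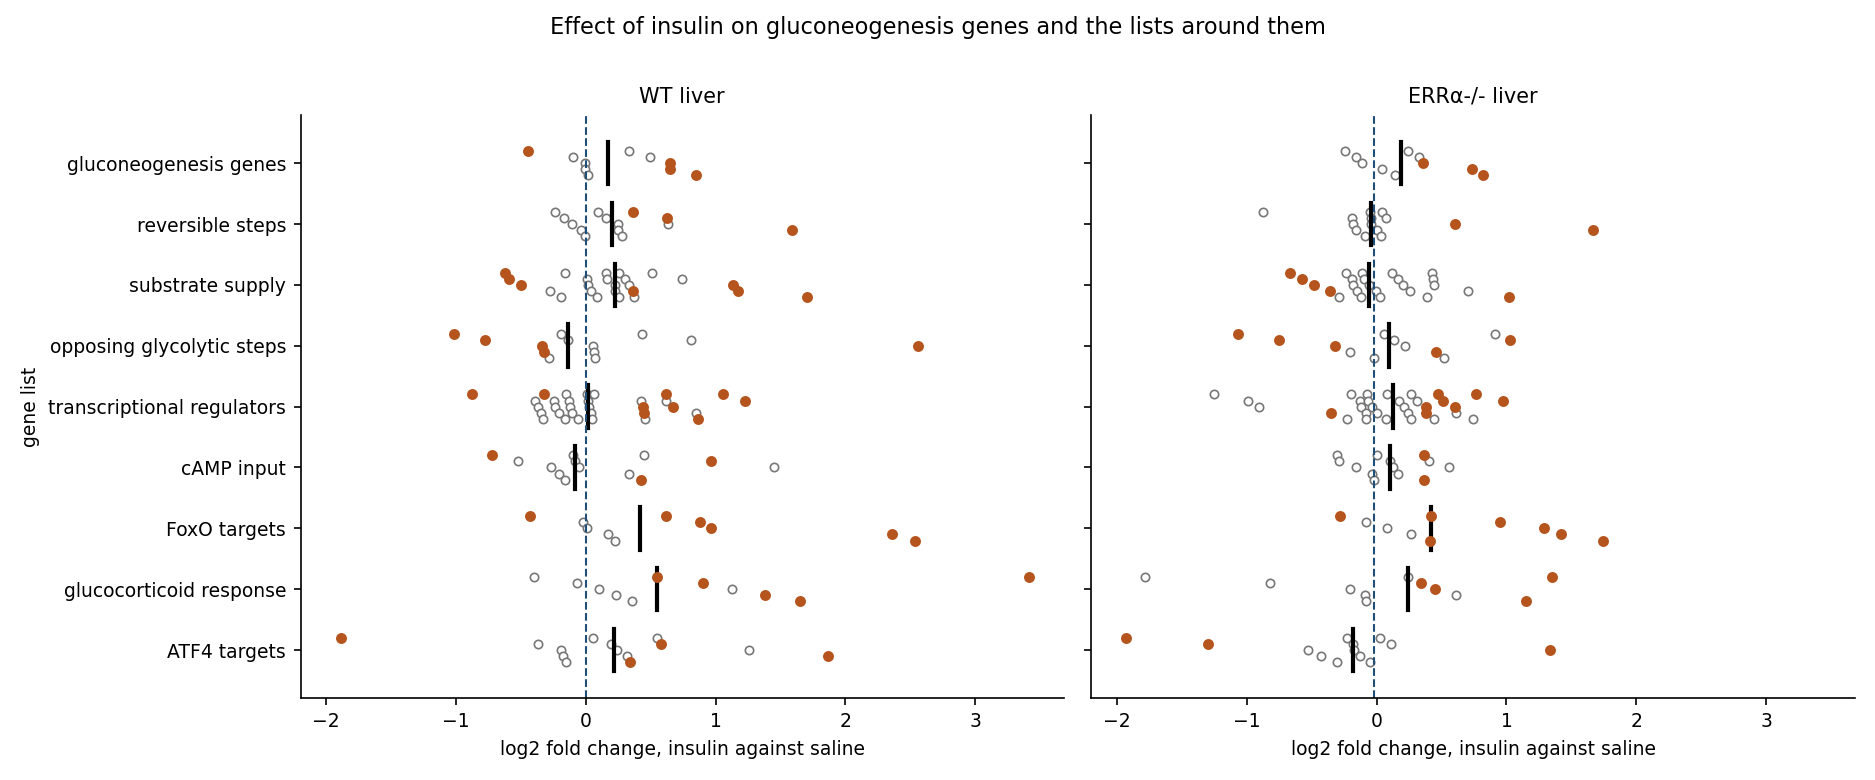
Log2 fold change of insulin against saline (horizontal axis) of each tested gene of the gluconeogenesis members and 8 lists around them (vertical axis), in WT and ERRα-/- liver. Filled points passed the test, black bars are list medians and the dashed line is the median of all genes, and the bars of FoxO targets (0.42 in each genotype) and glucocorticoid response genes (0.54 and 0.24) lie to its right.

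Across the 15 livers of the insulin experiment, genes with the most similar pattern to a member were sought among 14670 genes by Pearson correlation of log2 CPM. Nearest to Tat were Igfbp1 (r = 0.95, Spearman's rho = 0.95), Fh1 (0.95 and 0.95) and Ctsl (0.93 and 0.93). Without the 2 livers farthest from the median, r for these 3 was 0.92, 0.94 and 0.91, and among deviations from group means it was 0.88, 0.88 and 0.91. Pck1 was nearest to Inpp5b (r = 0.93, rho = 0.84), Ing4 (0.89 and 0.80) and Rbm5 (0.87 and 0.83), with r of 0.85, 0.74 and 0.79 without 2 livers. G6pc was nearest to Fxr2 (r = 0.91, rho = 0.91), Dvl1 (0.90 and 0.89) and Ggnbp2 (0.86 and 0.82), with r of 0.82, 0.81 and 0.80. Between members, the highest r over the 15 livers was 0.78 for G6pc and Tat, then 0.77 for Gpt2 and Tat and 0.66 for Pcx and Slc37a4, while Pck1 had 0.20 with G6pc and 0.21 with Tat. Among deviations from group means these were 0.57, 0.52, 0.58, 0.47 and 0.32, and the highest was 0.75 for Slc37a4 and Tat. These values are descriptions, and the livers share groups.

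The ERRα3SA experiment asked whether the level of the pathway differs when ERRα cannot be phosphorylated at these serines. In liver neither of the main enzymes, Pck1 and G6pc, passed the test. Pck1 stood at 1320, 2077, 1470 and 1655 CPM in WT and 1848, 1295, 1641 and 1443 CPM in ERRα3SA livers, and G6pc at 666, 774, 534 and 1047 CPM and 626, 887, 552 and 535 CPM. The ranges of either gene overlapped almost fully. Log2 fold changes were -0.06 ± 0.17 and -0.21 ± 0.22 (SE). With single libraries left out, that of G6pc ranged from -0.40 to -0.014. Tat stood at 1709, 2092, 1730 and 1700 CPM in WT and at 2359, 1273, 1903 and 950 CPM in ERRα3SA livers, a wider spread with the lowest value in liver 4. That liver was also the lowest of all 8 in Fbp1 (596 CPM), Pcx (468 CPM), Slc37a4 (106 CPM) and Gpt2 (278 CPM). Without it the log2 fold changes of these 5 genes lay between 0.03 and 0.22, and none passed.

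G6pc3 was the 1 member that passed in liver. It stood at 4.82, 5.59, 6.56 and 5.58 CPM in WT and at 3.34, 3.77, 3.72 and 3.66 CPM in ERRα3SA livers, on 125 to 153 and 71 to 80 counts. The groups did not overlap. G6pc3 fell by 35.4% (log2 fold change -0.63 ± 0.13, SE, unadjusted p = 0.000748, adjusted p = 0.493). Of 9 members tested, 0 were higher and 1 lower, against 2.5% and 2.38% of all genes, and no gene passed with adjusted p-values (0%). With DESeq2 G6pc3 did, against 0.315% of all genes. Fbp2, with at most 5 counts in a liver, was not tested. The median was -0.13 over the members and -0.00 over all genes. The G6pc3 call was kept with any single library left out, and without the livers with over 100 CPM of pancreas markers (log2 fold change -0.67). Of the lists, glucocorticoid response genes had 5 of 10 higher and 0 lower with a median of 0.53. Among them were Cdkn1a (1.07 ± 0.27, SE) and 2 genes with an extreme value in ERRα3SA liver 4, Lcn2 (222 CPM against 1.69 to 6.37 CPM in the other 7 livers) and Mt1 (42.4 against 2.23 to 5.49 CPM). Without liver 4, a setting chosen after the data were seen, 5 of 10 were higher and 1 lower, with a median of 0.38, against 2.86% and 3.74% of all genes, and Lcn2 no longer passed. Got1 was lower (-0.68).

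In muscle, where the pathway ends short of free glucose, Fbp2 was the member that passed. It stood at 39.5, 40.7, 47.5 and 39.9 CPM in WT and at 56.6, 54.3, 46.8 and 56.8 CPM in ERRα3SA muscles. WT muscle 3 lay above ERRα3SA muscle 3, and the groups were otherwise apart. Fbp2 was 1.31 times as high (log2 fold change 0.38 ± 0.11, SE, adjusted p = 0.880). Of 7 members tested, 1 was higher and 0 lower, against 2.78% and 1.75% of all genes, and no gene passed with adjusted p-values (0%). Tat, Fbp1 and G6pc had too few counts to be tested. The median was 0.08 over the members and 0.02 over all genes. In a fit of all groups of the table the Fbp2 call was lost (0.36, unadjusted p = 0.0940). Without ERRα3SA muscle 1, the library rich in mitochondrial counts, G6pc3 (0.32) and Pck2 (0.60) passed too. Without muscles 1 and 4, Fbp2 had 0.29 and G6pc3 0.38, and both passed. Calls over all genes grew in the same way, from 639 of 14081 to 2506 of 14363 without muscle 1 and 2597 of 14586 without both. In the last fit Fbp2 and G6pc3 also passed with adjusted p-values, as did 10.3% of all genes. Muscle 1 was lowest of the 8 in Pcx (40.9 CPM), Slc37a4 (37.9 CPM) and G6pc3 (18.2 CPM).

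**Figure D4:**
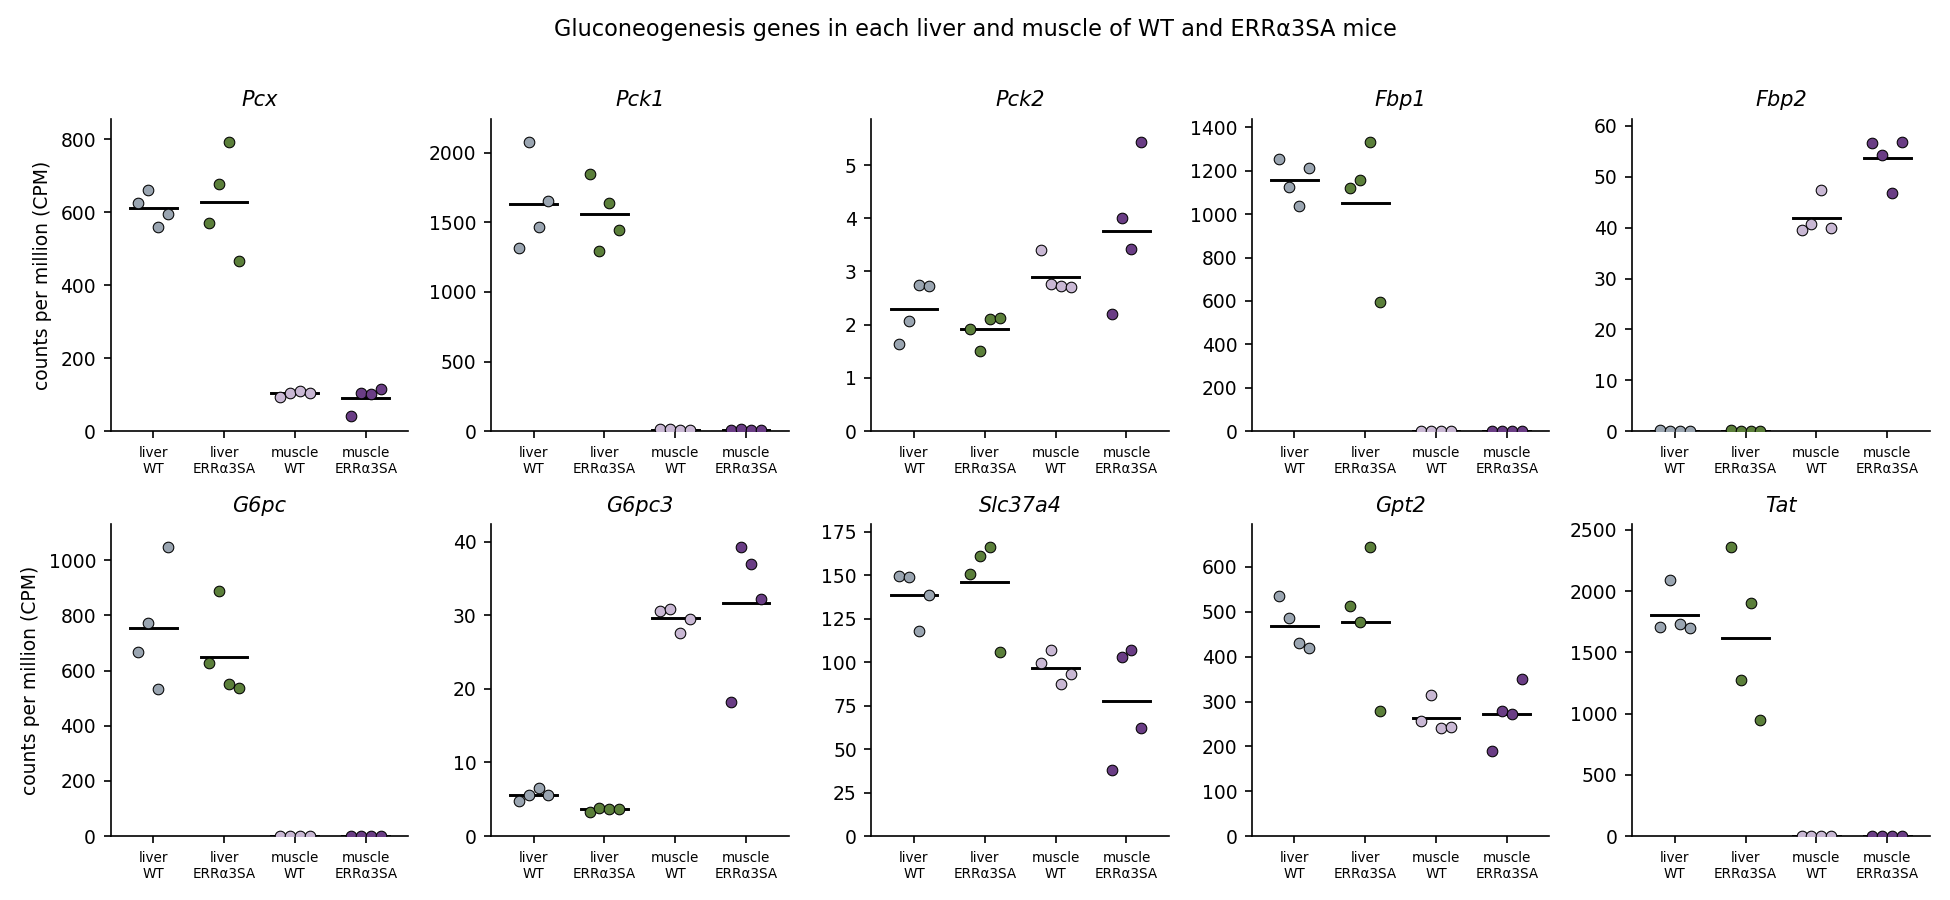
Level of each gluconeogenesis gene (CPM, vertical axis, from 0) in each liver and muscle of WT and ERRα3SA mice (horizontal axis), with 1 point per sample and a line at the group mean. G6pc3 is lower in all 4 ERRα3SA livers (3.34 to 3.77 CPM) than in WT livers, and Fbp2 is found in muscle at 39.5 to 56.8 CPM.

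The tissues themselves differed far more than the genotypes. Between WT liver and WT muscle, 7 of 10 members were higher in liver and 2 lower, against 42.2% and 42.0% of all genes, and 9 of 10 passed with adjusted p-values, against 86.5%. Most genes differ between these organs, so the counts say little about the members by themselves. G6pc stood at 534 to 1047 CPM in liver and had 0 counts in all 8 muscles, and a floor of 3 counts per library makes it at least 6682 times as high in liver. By the same floor Fbp1, with 2 counts over the 4 WT muscles, was at least 10234 times as high in liver. Tat had 4 counts that all lay in WT muscle 4, above that floor, and its mean in WT liver was 15992 times the floor. Floors and intervals cover counting error only. Pck1 was 162 times as high in liver, with 13.8, 15.9, 4.89 and 5.69 CPM in WT muscles. Fbp2 went the other way: it had 8 counts over the 4 WT livers, 5 of them in 1 liver, and the ratio of muscle to liver was 592 (95% interval of the counting error 300 to 1370).

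The members that both organs share differed less. Log2 fold changes of liver over muscle were 2.53 ± 0.08 (SE) for Pcx, 0.79 ± 0.11 for Gpt2, 0.49 ± 0.09 for Slc37a4 and -2.44 ± 0.09 for G6pc3. G6pc3 stood at 27.6 to 30.9 CPM in WT muscle and at 4.82 to 6.56 CPM in WT liver. Pck2 (1.63 to 2.74 CPM in liver, 2.71 to 3.41 CPM in muscle) had -0.39 ± 0.19 and passed only without WT liver 3 (-0.47) or 4 (-0.46).

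To compare the genes with each other, levels were divided by the length of the exons. In WT livers with saline, Pck1 stood highest, at 1250 ± 116 CPM per kilobase (SD, n = 4), before Tat at 827 ± 234, Fbp1 at 399 ± 41.1, Pcx at 212 ± 36.7, Gpt2 at 158 ± 33.3, G6pc at 106 ± 11.2 and Slc37a4 at 88.1 ± 26.4 CPM per kilobase. Far below came G6pc3 at 1.46 ± 0.259, Pck2 at 0.274 ± 0.0787 and Fbp2 at 0.223 ± 0.182 CPM per kilobase. Neighbours whose ranges overlapped were Pck1 and Tat, Pcx and Gpt2, G6pc and Slc37a4, and Pck2 and Fbp2. With insulin the first 2 places changed hands in WT liver on this per-kilobase scale, with Tat at 1489 ± 529 and Pck1 at 916 ± 163 CPM per kilobase (SD, n = 4), still overlapping. Gpt2, at 247 ± 22.8 CPM per kilobase, stood before Pcx.

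ERRα-/- livers had the same per-kilobase order as WT livers after saline, with Pck1 at 1323 ± 131 and Tat at 1240 ± 431 CPM per kilobase (SD, n = 4). After insulin Tat stood at 2067 ± 257 and Pck1 at 1569 ± 82.2 CPM per kilobase (SD, n = 3), with ranges that did not meet. By the length of the longest transcript these ranges overlapped. In the ERRα3SA experiment, a table normalized on its own, WT livers held Tat at 752 ± 79.1, Fbp1 at 680 ± 56.5, Pck1 at 476 ± 95.6, G6pc at 313 ± 90.3 and Pcx at 128 ± 9.17 CPM per kilobase (SD, n = 4). Gpt2, Slc37a4, G6pc3, Pck2 and Fbp2 followed, from 83.0 to 0.0482 CPM per kilobase. Only Tat and Fbp1 and Pck1 and G6pc overlapped as neighbours. ERRα3SA livers had the same order, with Tat at 674 ± 263 and Pck1 at 454 ± 70.1 CPM per kilobase. With the length of the longest transcript in place of that of all exons, 66 of the 80 member and group means kept their rank. Fbp1 then stood before Tat in the livers of the ERRα3SA experiment, Gpt2 before Pcx in the saline groups and in ERRα-/- livers with insulin, and Slc37a4 before G6pc in WT livers with saline.

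Muscle had an order of its own on the per-kilobase scale. In WT muscle Gpt2 led at 46.8 ± 6.05 CPM per kilobase (SD, n = 4), followed by Slc37a4 at 33.9 ± 2.93, Fbp2 at 28.5 ± 2.55, Pcx at 21.7 ± 1.30, G6pc3 at 13.3 ± 0.665, Pck1 at 2.94 ± 1.64 and Pck2 at 0.372 ± 0.0432 CPM per kilobase, with Tat, Fbp1 and G6pc at or near 0. Slc37a4 and Fbp2 overlapped. ERRα3SA muscle placed Fbp2, at 36.5 ± 3.18 CPM per kilobase, before Slc37a4, at 27.1 ± 11.6, and the ranges from Gpt2 down to G6pc3 overlapped from neighbour to neighbour.

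**Figure D5:**
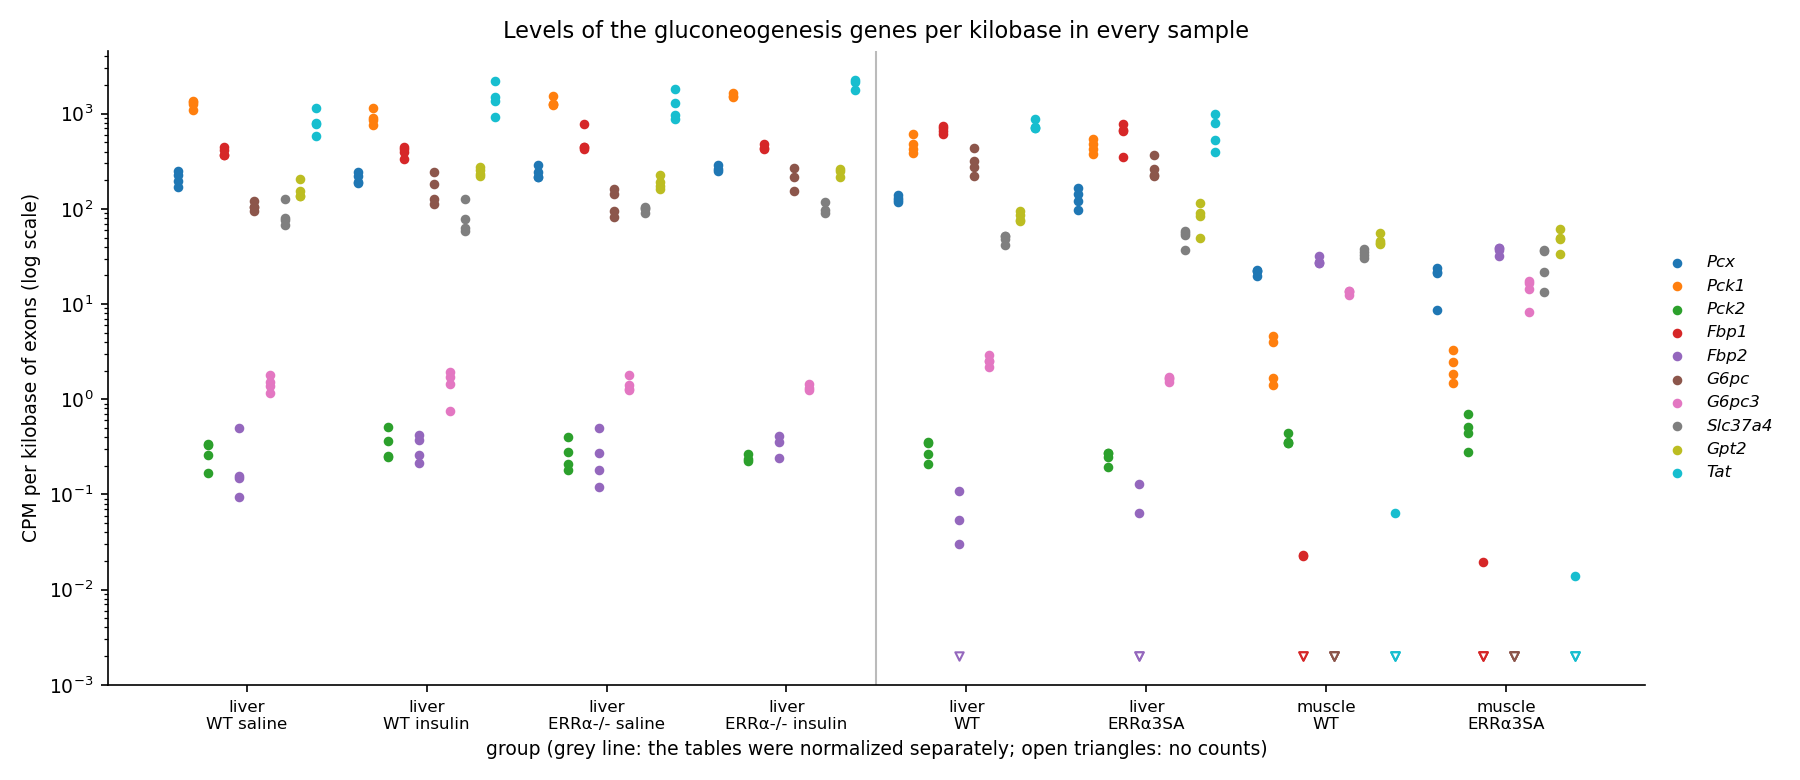
Level per kilobase of exons (CPM per kilobase, vertical log axis) of each gluconeogenesis gene in every sample of the 8 groups (horizontal axis), with open triangles where a sample had no counts. In liver Pck2, Fbp2 and G6pc3 lie far under the other 7 genes, and in muscle G6pc has no counts in any sample.

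The paralogs divided the tissues between them. Per kilobase, Pck1 made up at least 99.9% of the sum of Pck1 and Pck2 in each liver and 86.5 ± 6.00% (SD, n = 4) in WT muscle. G6pc made up 98.6 ± 0.329% of the sum of G6pc and G6pc3 in WT livers with saline and 99.0 ± 0.473% with insulin, and none of it in muscle. Fbp1 made up 99.9% of the sum of Fbp1 and Fbp2 in every liver group of the insulin experiment and 0.0415 ± 0.0480% in WT muscle. Thus each of the last pair was nearly confined to 1 of the 2 organs, while Pck1 remained the main carboxykinase transcript in both.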

How the data were processed

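The authors deposited raw counts per gene for 31 libraries, made, per the submitters' processing notes, by aligning reads to mm10 with STAR. From these deposited counts, edgeR 4.0.16 in R 4.3.3 computed TMM library sizes, kept genes by filterByExpr and ran its quasi-likelihood test on only the groups of each comparison, with Benjamini-Hochberg adjustment over all genes tested. Libraries held 35871419 to 48317108 counts (insulin experiment) or 20481405 to 33412022 (ERRα3SA experiment). The members and lists were chosen with earlier results of these data known. Besides the 10 members, up to 4 genes per list and comparison were named, those past the call rule with the largest log2 fold change, and the 3 nearest patterns of Pck1, G6pc and Tat. Alternatives were DESeq2 1.42.0, its size factors, no filter, all groups in the fit, the replicate number as a block, other measures of length, and each library left out. Leaving out libraries that stood apart was chosen after seeing the data. The pipeline was tested on simulated data. Other assays of the study were not analysed here.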

Additional observations from a re-analysis of the deposited data

Results flagged for a closer look

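In each of 65 sets of replicate values of a member with 4 samples, those with over 3 counts in at least 1 library, the sample at the edge was compared with the rest by the share of the range taken by its gap to the next value. This singled out 7 values, and chance alone would single out about 1 in 20 sets of continuous values. The other 5 sets, all in muscle, were not compared, and those of Tat and Fbp1 in ERRα3SA muscle held a single count in 1 library. In livers of the insulin experiment they were Fbp2 at 0.725 CPM in WT saline liver 1, Pck1 at 5204 CPM in ERRα-/- saline liver 3 and Fbp1 at 1338 CPM in the same liver, each the highest of its group. In the ERRα3SA experiment they were Tat at 2092 CPM in WT liver 2, Pck2 at 3.41 CPM in WT muscle 1, Fbp2 at 47.5 CPM in WT muscle 3 and Tat at 0.153 CPM in WT muscle 4, also the highest of their groups, the last on 4 counts. For that set the rate of chance does not apply, because the other 3 muscles had 0 counts. The effect of insulin on Pck1 differed between WT and ERRα-/- liver by a log2 of -0.69 and had opposite signs in them.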

How the results depend on the processing

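Groups held 3 or 4 animals, so single libraries weighed on the counts, and the sign of small log2 fold changes depended on the setting. Where the share of all genes under a setting is not given, its count of members called is not a result about the members alone. Of log2 fold changes under all settings, 70 reversed sign, 981 kept sign and call, 19 gained a call and 24 lost theirs. Same-numbered samples had low correlations, between -0.18 and 0.24, and the methods name no pairing, so a block by replicate number was not used for the results. The own number was the best match in 3 of 4 pairs of WT liver with WT muscle, and in 0 of 3 of ERRα-/- livers with saline and insulin. ERRα3SA liver 4 and muscle 4 were each highest of their tissue in Mt1 (42.4 and 136 CPM) and Lcn2 (222 and 3.80 CPM). Whether samples of 1 number came from the same mouse was not tested. The cause of the differences between libraries was not tested.

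Leave-one-out, lowest to highest log2 fold change: insulin in WT liver, Pcx -0.10 to 0.0918, Slc37a4 -0.40 to 0.13, G6pc3 -0.16 to 0.21, Fbp1 -0.0431 to 0.0937. In the same comparison G6pc had 0.39 to 0.80, Pck2 0.0703 to 0.46 and Fbp2 0.24 to 1.23. Insulin in ERRα-/- (KO) liver, Slc37a4 -0.0777 to 0.12, G6pc3 -0.18 to 0.0115, Pck2 -0.30 to 0.11, Fbp1 -0.32 to 0.0178. Genotype by insulin interaction, leave-one-out: members called 1 to 2, Tat -0.14 to 0.31, Fbp2 -0.31 to 0.91, Slc37a4 -0.45 to 0.0771, G6pc3 -0.0500 to 0.32, Fbp1 -0.00641 to 0.34, G6pc -0.43 to 0.0223. KO against WT liver with saline, leave-one-out: members called 0 to 3, Fbp2 -0.23 to 0.99, G6pc3 -0.15 to 0.0898, Pck2 -0.30 to 0.12. KO against WT liver with insulin, leave-one-out: members called 1 to 5, Fbp2 -0.0729 to 0.26, Gpt2 -0.0828 to 0.0354, G6pc3 -0.36 to 0.0201. ERRα3SA against WT liver, leave-one-out: Tat -0.39 to 0.0314, Pck1 -0.16 to 0.0747, Fbp1 -0.27 to 0.0599, Gpt2 -0.15 to 0.22, Pcx -0.0903 to 0.16. ERRα3SA against WT muscle, leave-one-out: members called 1 to 3, Gpt2 -0.0755 to 0.23, Pcx -0.32 to 0.0782.

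With a replicate block (its number as a factor), log2 fold changes were: insulin effect in WT liver, Pcx 0.00361; insulin effect in KO liver, Pck2 0.13 and Fbp1 0.0147; KO against WT liver with insulin, G6pc3 0.0322; 3SA against WT liver, Gpt2 -0.0235. With this block 4 members were called for insulin in KO liver, Pck1 (0.32) being the one gained, and 1 member in KO against WT liver with insulin, where Pcx was no longer called. With adjusted p-values Tat passed for insulin in WT liver, and Tat and G6pc in KO liver.

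With livers with exocrine pancreas markers left out, a setting chosen after seeing the data, members called were 0 for insulin in WT liver, 0 for the interaction, 0 for KO against WT liver with saline and 1 with insulin. Log2 fold changes were then: insulin effect in WT liver, Pcx 0.0491 and G6pc3 0.12; genotype by insulin interaction in liver, Tat -0.0732 and G6pc 0.0677; KO against WT liver with saline, Slc37a4 -0.0000909, G6pc3 0.16 and Pck2 0.20; KO against WT liver with insulin, Fbp2 -0.0107 and Gpt2 0.00773.

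In KO against WT liver with saline, 2 members were called with DESeq2 in place of edgeR, 2 with no filter on low counts and 2 with all groups of the table in one fit. In ERRα3SA against WT muscle, 0 were called with all groups of the table in one fit, and 2 with the muscles that stand apart left out, where Slc37a4 had 0.13.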
